A study of Mus musculus with 7 samples.

Results

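The genes described here are 10 components of transforming growth factor beta (TGF-beta) signalling, taken by symbol from a table of 29869 genes counted in mouse soleus muscle. They are the ligand genes Tgfb1, Tgfb2 and Tgfb3, the latent TGF-beta binding protein genes Ltbp1, Ltbp2, Ltbp3 and Ltbp4, the receptor genes Tgfbr1 and Tgfbr2, and Ctgf. All 10 were in the table, and all 10 passed the filter on low counts. Tgfb1 and Ltbp4 lie on chromosome 7, Tgfb2 on 1, Tgfb3 and Ltbp2 on 12, Tgfbr1 on 4, Tgfbr2 on 9, Ctgf (now named Ccn2) on 10, Ltbp1 on 17 and Ltbp3 on 19. RNA came from whole soleus, a slow-twitch muscle of the calf, on postnatal day 60. Of 7 libraries, 3 are labelled mdx/Runx1f/f and carry floxed alleles of the transcription factor gene Runx1, and 4 are labelled mdx. Every animal in both groups has the mdx mutation, which removes dystrophin from muscle and is the standard mouse model of Duchenne muscular dystrophy. The labels name no Cre driver, so the cells in which Runx1 would be deleted are not given.

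TGF-beta is a secreted dimer that is held inactive by its own propeptide. Latent TGF-beta binding proteins bind this propeptide and anchor the complex to fibrillin and fibronectin in the matrix, from which integrins and proteases can release it. The free ligand brings together the type II receptor Tgfbr2 and the type I receptor Tgfbr1, which phosphorylates Smad2 and Smad3. In dystrophic muscle the pathway is known for driving fibrosis, and in mice Ltbp4 is a genetic modifier of the severity of muscular dystrophy.

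Total counts lay between 16218306 and 20847902 per library. Runx1 itself stood at 919, 925 and 596 normalised read counts in the libraries labelled mdx/Runx1f/f and at 274, 273, 235 and 201 in the libraries labelled mdx. Its count was thus higher, not lower, under the floxed label. The counts are per gene and do not show which exons were read, so deletion of the floxed part was not tested. The description field ties most animal numbers to other samples than the titles do, and the design text counts 3 mdx and 4 mdx/Runx1f/f muscles. Every direction below rests on the titles. Slow-fibre markers, which define the soleus, were abundant, at a summed 7668 to 29264 CPM (counts scaled to the library total) in the libraries labelled mdx/Runx1f/f and 27173 to 46226 CPM in those labelled mdx. The lowest sum was that of mdx/Runx1f/f replicate 1. All 7 genes of this list had a negative log2 fold change (median -1.02). In 5 of them the libraries labelled mdx/Runx1f/f lay below all those labelled mdx, against 13.6% of all tested genes. Markers of fibro-adipogenic progenitors, the connective tissue cells of muscle, summed to 2713 to 3210.1 CPM against 1072 to 1488 CPM, with 7 of 9 called higher by edgeR. Macrophage markers summed to 798 to 2367 CPM against 171 to 807 CPM, with 3 of 10 called higher. Schwann cell markers summed to 211 to 259 CPM against 124 to 156 CPM, with 2 of 5 called higher. Tendon markers summed to 1258 to 2186 CPM against 279 to 862 CPM, and satellite cell markers to 86.3 to 174 CPM against 55.5 to 74.7 CPM. In each of these 2 lists 4 of 5 genes had a positive log2 fold change. Thbs4 had the most counts in the tendon list (log2 fold change 1.53), while Scx was at -0.47. Myog had the most in the satellite list (1.17), while Pax7 was at 0.074 and Myf5 at -0.34. The sums of endothelial markers (600.5 to 761 CPM against 487 to 921 CPM) and of smooth muscle markers (5315 to 7301 CPM against 5311 to 6195 CPM) overlapped between groups. The smooth muscle sum mostly follows 1 gene, Des, at 82820 to 114235 normalised counts. The next highest value on that list was 4469, for Rgs5. Of its 6 genes 5 had a positive log2 fold change, and Acta2 did not overlap between groups (0.78, edgeR adjusted p = 0.0518). In the slow-fibre, tendon, satellite, endothelial and smooth muscle lists edgeR and limma-voom called 0 genes, while DESeq2 called 3 of 7 slow-fibre genes lower and 2 of 5 tendon, 2 of 5 satellite, 0 of 6 endothelial and 1 of 6 smooth muscle genes higher. At an unadjusted edgeR p below 0.05 the slow-fibre list had 4 genes lower, and the tendon, satellite, endothelial and smooth muscle lists had 2, 3, 0 and 3 higher. Over all genes tested, 12.4% were lower and 17.1% higher at that unadjusted p. At an adjusted p below 0.05 edgeR called 1.85% of all genes tested lower and 5.10% higher, and DESeq2 called 5.95% lower and 10% higher. No marker on these lists was at 0 in every library. In whole muscle, more cells of a type and more RNA per cell cannot be told apart, and the part of these cell types in the results on the 10 genes was not tested.

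All 10 genes had a positive log2 fold change of mdx/Runx1f/f over mdx, but 2 passed the test, Ltbp1 and Tgfbr2, both higher. The test was the quasi-likelihood test of edgeR with p-values adjusted by Benjamini-Hochberg across 14033 genes, and called means adjusted to below 0.05. Of all tested genes 6.95% were called, 5.10% higher and 1.85% lower, and 49.8% had a positive fold change. The 10 genes were chosen with earlier results of these data known, so such shares are background and not a test of the set. Limma-voom called 2 of the 10 higher (5.24% of all genes) and DESeq2 called 4 (10% of those it tested). At an unadjusted edgeR p below 0.05, 5 of the 10 were higher, as were 17.1% of all genes. The median log2 fold change of the 10 was 0.61, against -0.0016 over all tested genes. Groups without overlap were seen in 4 of the 10, Tgfb1, Ltbp1, Ltbp4 and Tgfbr2, each with the mdx/Runx1f/f libraries above. Groups stood apart without overlap in 27.4% of all tested genes, upwards in 13.9%. The titles hold 2 series of animal numbers, and the log2 difference was positive for all 10 genes within each. Whether the series differ was not settled, since 1 of them holds a single library labelled mdx/Runx1f/f. Animals 373 to 375 alone, 1 library against 2, gave calls for Ltbp1, Ltbp2, Tgfbr1, Tgfbr2 and Ctgf, while calling 1361 of all genes higher.

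**Figure D1:**
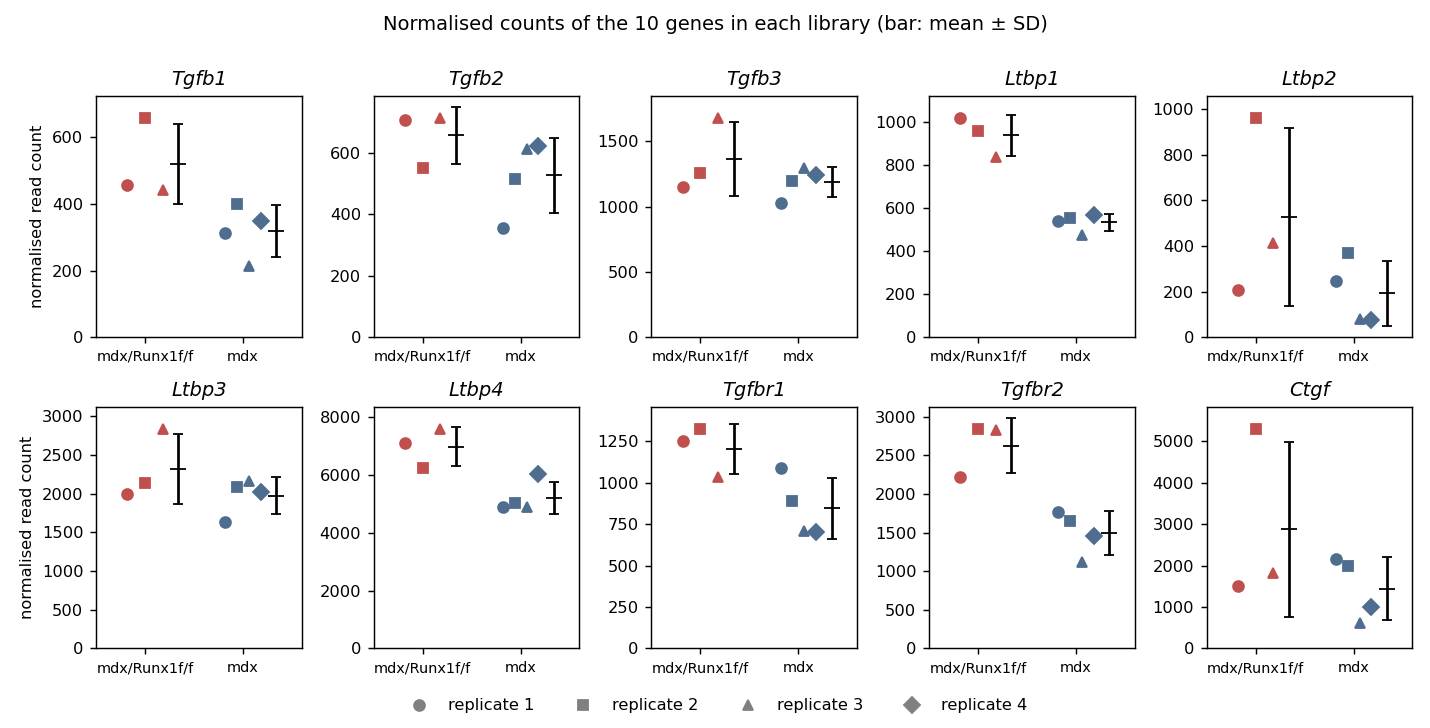
Normalised read counts of each of the 10 genes by library, with the 3 libraries labelled mdx/Runx1f/f on the left of each panel and the 4 labelled mdx on the right; marker shapes give the replicate number and bars the mean ± SD. Ltbp1 and Tgfbr2 show no overlap between groups, while Ctgf and Ltbp2 are led by replicate 2 of the libraries labelled mdx/Runx1f/f, at 5305 and 964.

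Among the ligands, Tgfb1 encodes the form that is most often linked to fibrosis and is made in quantity by macrophages. It had 458, 659.9 and 444 normalised counts in the libraries labelled mdx/Runx1f/f and 313, 400.0, 215 and 350.5 in those labelled mdx. The 3 libraries of the first group lay above all 4 of the other, with the narrowest gap between 444 and 400.0. Its mean was 521 ± 121 (SD, n = 3) against 319.6 ± 78.2 (SD, n = 4). In log2 the difference of 0.71 (SE 0.22) did not pass (edgeR adjusted p = 0.0858). DESeq2 on the same counts gave an adjusted p of 0.0383 for it, within a range of 0.0383 to 0.272 over 16 alternative fits that keep the titles. Summed macrophage markers stood at 1094, 2367 and 798 CPM in the libraries labelled mdx/Runx1f/f and at 807, 468, 171 and 235 CPM in those labelled mdx. Replicate 2 of the libraries labelled mdx/Runx1f/f was highest in both measures, but mdx replicate 1 was above mdx replicates 2 and 4 in the markers and below them in Tgfb1. The part of macrophages in the Tgfb1 counts was not tested.

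Tgfb2 encodes a ligand that also acts in heart and muscle development. It stood at 707, 549.9 and 716 normalised counts in the libraries labelled mdx/Runx1f/f and at 357, 517, 612 and 624 in those labelled mdx. The groups overlapped, and mdx replicate 1 was the lowest library. The log2 fold change was 0.33 (SE 0.20, edgeR adjusted p = 0.309). Tgfb3, the ligand gene with the most reads per length here, had 1152, 1258 and 1681 normalised counts against 1027, 1194, 1298 and 1239 in the libraries labelled mdx. Only mdx/Runx1f/f replicate 3 lay above every library labelled mdx. Its log2 fold change was 0.20 (SE 0.15, edgeR adjusted p = 0.378), and it was 0.015 without mdx/Runx1f/f replicate 3. Exons of Tgfb3 overlap Ttll5 on the other strand over 1348 exonic bases, but Ttll5 averaged 6.94 normalised counts.

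Ltbp1 had the smallest p of the 10 genes. It encodes a secreted carrier that binds latent TGF-beta and fixes it to the matrix. Its normalised count was 1020.5, 956 and 835 in the libraries labelled mdx/Runx1f/f and 539.9, 556, 477 and 566 in those labelled mdx. The lowest library of the first group was well above the highest of the other. The mean rose to 937 ± 94.2 (SD, n = 3), against 535 ± 39.8 (SD, n = 4) under the mdx label, a fold of 1.76. In log2 this was 0.82 (SE 0.10, edgeR adjusted p = 0.0107), and Ltbp1 ranked 68 of 14033 genes by p. The call held in each of the 7 fits that left out 1 library, with log2 fold changes of 0.74 to 0.88. Within animals 358 to 363 (2 libraries against 2) the log2 difference was 0.86 and within animals 373 to 375 (1 library against 2) it was 0.69. Fitted alone, animals 358 to 363 gave an adjusted p of 0.131 by edgeR, in a design of 2 against 2 libraries that called 0 genes of all tested (1658 higher and 1011 lower at an unadjusted p below 0.05).

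Ltbp1 has 2 transcription starts in RefSeq, and the counts, which are per gene, do not show which was used. The 250 bases before each start are printed because Ltbp1 and Tgfbr2 are the genes of the set that were called. Sequences are RefSeq's in GRCm38.p6, not the mm9 build of the counts. The bases just after either Ltbp1 start were not found whole in any GENCODE vM21 transcript of Ltbp1. Positions below are therefore relative to RefSeq's starts alone. Capitals mark every match, on either strand, to the Runx hexamers TGTGGT and TGCGGT and to CAGAC, the core that Smad3 and Smad4 bind, read on the other strand as GTCTG. Both starts lie on chromosome 17, and the windows before them are chr17:75005279-75005528 (plus strand) and chr17:75178531-75178780 (plus strand).
Ltbp1, start 1: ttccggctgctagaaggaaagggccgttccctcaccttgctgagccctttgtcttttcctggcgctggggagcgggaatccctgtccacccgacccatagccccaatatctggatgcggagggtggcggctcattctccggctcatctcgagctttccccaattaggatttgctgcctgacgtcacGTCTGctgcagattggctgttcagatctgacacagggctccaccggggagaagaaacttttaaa
Ltbp1, start 2: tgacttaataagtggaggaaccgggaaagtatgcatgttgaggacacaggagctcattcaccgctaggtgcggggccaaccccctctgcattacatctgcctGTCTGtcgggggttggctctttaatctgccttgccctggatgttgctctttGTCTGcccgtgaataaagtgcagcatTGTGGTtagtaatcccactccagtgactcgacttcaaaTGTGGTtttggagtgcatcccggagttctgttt
The first window held 1 CAGAC match, which began 64 bases before the start, and no Runx hexamer. The second held TGTGGT at 71 and 33 bases before the start and CAGAC matches at 148 and 97 bases. Of 12 RefSeq windows for 8 of the 10 genes, this was the only 1 with a Runx hexamer, while 7 held CAGAC. Over all 32851 RefSeq promoter windows of that length, 18.6% held a Runx hexamer and 42.2% held CAGAC. A match describes the letters and not a bound site.

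Ltbp4 encodes a binding protein of elastic fibres and was the most abundant of the 10 genes per length. It had 7114, 6235 and 7596 normalised counts in the libraries labelled mdx/Runx1f/f and 4904, 5012, 4901 and 6044 in those labelled mdx. The groups did not overlap, and mdx replicate 4 came closest to the libraries labelled mdx/Runx1f/f. The mean was 6982 ± 689.6 (SD, n = 3) against 5215 ± 555 (SD, n = 4), a fold of 1.35. At 0.43 in log2 (SE 0.13) it missed the threshold (edgeR adjusted p = 0.0743). It was called in 2 of 16 alternative fits, by DESeq2 (adjusted p = 0.0153) and by edgeR with a term for the animal number series (adjusted p = 0.0429), over a range of 0.0153 to 0.209. The log2 difference was 0.43 within animals 358 to 363 and 0.49 within animals 373 to 375.

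Ltbp2, which binds fibrillin and elastic fibres but not latent TGF-beta, had the largest fitted fold of the 10 and the largest spread. It stood at 207, 964 and 414 normalised counts in the libraries labelled mdx/Runx1f/f and at 247, 369, 78.4 and 77.0 in those labelled mdx. Replicate 1 of the first group lay below mdx replicates 1 and 2, so the groups overlapped. Among the libraries labelled mdx, replicates 1 and 2 (animals 358 and 361) lay above replicates 3 and 4 (animals 373 and 375). The log2 difference was 0.57 within animals 358 to 363 and 2.39 within animals 373 to 375, where 1 library stands against 2. Over all 7 libraries the log2 fold change was 1.46 (SE 0.66, edgeR adjusted p = 0.184), and it was 0.69 without mdx/Runx1f/f replicate 2 and 1.98 without mdx replicate 2. Ltbp3, a carrier of latent TGF-beta that is needed for bone and tooth development, had 1991, 2132 and 2836 normalised counts against 1626, 2078, 2167 and 2017 in the libraries labelled mdx. Its log2 fold change was 0.24 (SE 0.15, edgeR adjusted p = 0.318), and mdx/Runx1f/f replicate 3 was the only library above all those labelled mdx.

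Both receptor genes had higher mean counts under the mdx/Runx1f/f label. Tgfbr2, the type II receptor that binds ligand first, had 2217, 2846 and 2824 normalised counts under the mdx/Runx1f/f label and 1761, 1649, 1122 and 1452 under the mdx label. No library of the first group came below any of the other. The mean was 2629 ± 357 (SD, n = 3) against 1496 ± 280.3 (SD, n = 4), a fold of 1.76, and 0.82 in log2 (SE 0.17), which passed the test (edgeR adjusted p = 0.0321). The call rests on most of the libraries: it was kept without mdx replicate 1 or mdx/Runx1f/f replicate 1 and lost without mdx replicates 2, 3 or 4 or mdx/Runx1f/f replicates 2 or 3 (edgeR adjusted p = 0.0613, 0.0566, 0.0780, 0.100 and 0.0625), while the log2 fold change stayed between 0.71 and 0.92. Within animals 358 to 363 the log2 difference was 0.57 and within animals 373 to 375 it was 1.15, and the gene was not called in animals 358 to 363 alone (edgeR adjusted p = 0.183). The window before the Tgfbr2 start lies at chr9:116175364-116175613 (minus strand, RefSeq, GRCm38.p6), and its capitals mark CAGAC, 160 bases before the start.
Tgfbr2: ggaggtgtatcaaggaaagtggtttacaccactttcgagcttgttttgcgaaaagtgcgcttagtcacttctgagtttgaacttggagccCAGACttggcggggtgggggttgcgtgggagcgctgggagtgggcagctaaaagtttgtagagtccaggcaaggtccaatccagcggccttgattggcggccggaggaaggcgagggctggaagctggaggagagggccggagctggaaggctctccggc
This window held no Runx hexamer. The bases just after this RefSeq start were not found whole in any GENCODE vM21 transcript of Tgfbr2.

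Tgfbr1, the type I receptor whose kinase acts on the Smads, had 1249.6, 1325 and 1033 normalised counts in the libraries labelled mdx/Runx1f/f and 1086, 892, 706 and 701 in those labelled mdx. The groups overlapped at mdx/Runx1f/f replicate 3 and mdx replicate 1, which belong to different series of animal numbers (374 and 358). Within animals 358 to 363 (2 libraries against 2) the log2 difference was 0.39, and within animals 373 to 375 (1 against 2) it was 0.56. Over all 7 libraries the difference in log2 was 0.51 (SE 0.17, edgeR adjusted p = 0.0990). Without mdx replicate 1 it was 0.65 and was called (edgeR adjusted p = 0.0474). With a term for the animal number series it was 0.46 and was also called (edgeR adjusted p = 0.0266). The adjusted p ranged from 0.0266 to 0.274 across the 16 alternative fits.

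Ctgf encodes connective tissue growth factor, a matricellular protein of the CCN family that TGF-beta induces in fibroblasts and that serves as a readout of the pathway. It had 1501, 5305 and 1822 normalised counts in the libraries labelled mdx/Runx1f/f and 2164, 1996, 616 and 989 in those labelled mdx. Replicate 2 of the first group was more than all others, and the other two lay inside the range of the libraries labelled mdx. Among the libraries labelled mdx, replicates 1 and 2 (animals 358 and 361) lay above replicates 3 and 4 (animals 373 and 375). The mean was 2876 ± 2109.9 (SD, n = 3) against 1441 ± 756 (SD, n = 4). At 1.00 in log2 (SE 0.55), this did not pass (edgeR adjusted p = 0.259), and without mdx/Runx1f/f replicate 2 it was 0.22 (edgeR adjusted p = 0.835). That replicate also had the highest summed macrophage markers, 2367 CPM against 171 to 1094 CPM in the other 6 libraries, and the part of those cells was not tested.

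**Figure D2:**
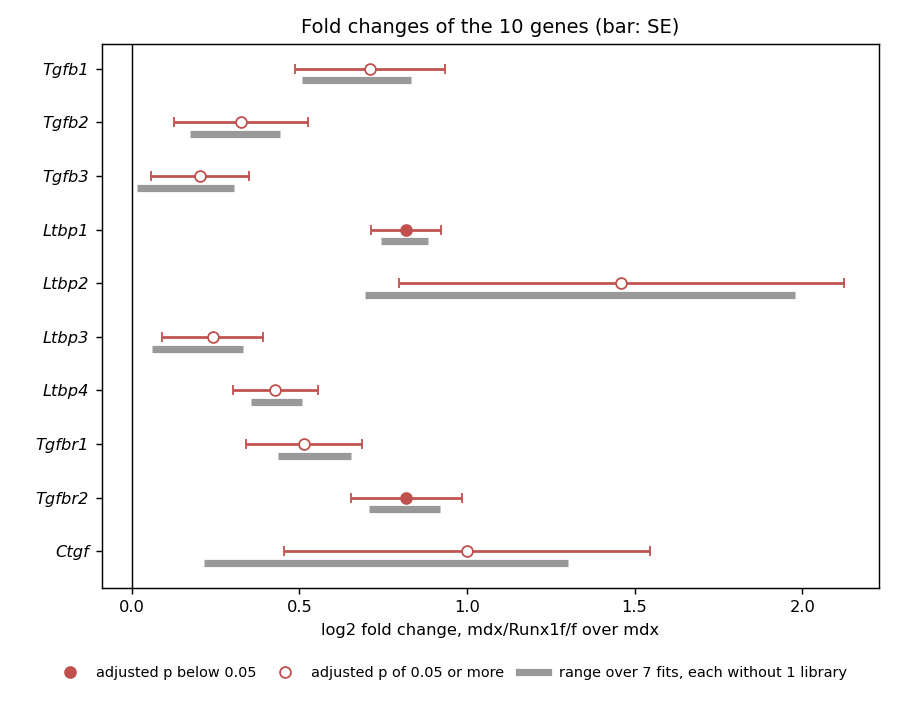
Log2 fold changes of the 10 genes, mdx/Runx1f/f over mdx, with their SE; filled points passed the test and grey bars span the 7 fits that each left out 1 library. Every value lies above 0, Ltbp1 has the narrowest bar relative to its size, and the bar of Ctgf reaches down to 0.22.

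Whether genes of the same role differed from each other was tested on the log2 ratio of 2 genes within each library, which does not depend on the scaling of the library. In 10 pairs (3 of ligands, 6 of latent binding proteins and 1 of receptors) no ratio separated the groups. The smallest p values were those of Ltbp1 to Ltbp4, with a mean log2 ratio of -2.89 ± 0.25 (SD, n = 3) against -3.28 ± 0.12 (SD, n = 4), and of Ltbp1 to Ltbp3, with -1.29 ± 0.42 (SD, n = 3) against -1.87 ± 0.24 (SD, n = 4). Both gave p = 0.0857 by a two-sided exact permutation test over 35 splits, which can go no lower than 0.0286, and an adjusted p of 0.408 over the 10 pairs. The log2 ratio of Tgfbr1 to Tgfbr2 was -1.13 ± 0.31 (SD, n = 3) against -0.82 ± 0.18 (SD, n = 4), with an exact permutation p of 0.171 (adjusted p = 0.408). Leaving out mdx/Runx1f/f replicate 3 separated 3 of the 10 pairs, leaving out mdx replicate 1 or mdx/Runx1f/f replicate 1 separated 1 each, and leaving out any of the other 4 libraries separated 0. Separation is easier to reach with fewer libraries. After adjustment over the 10 pairs, a lone pair at the lowest permutation p could not pass, so the test could not decide for single pairs. With all 7 libraries, the called genes were not shown to differ from the uncalled genes of their role, nor to be alike.

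Levels were compared between genes per kilobase of exon in GENCODE vM21, which may differ from the annotation used for counting. Under the mdx/Runx1f/f label the order was Ltbp4 (1080.2 ± 107 normalised counts per kb, SD, n = 3), Ctgf, Tgfb3, Tgfbr2, Ltbp3, Tgfbr1, Tgfb2, Tgfb1, Ltbp1 and Ltbp2 (64.6 ± 47.8). In the libraries labelled mdx it ran from Ltbp4 (807 ± 85.8, SD, n = 4) to Ltbp2 (23.6 ± 17.3) in the same order, except that Ltbp3 stood before Tgfbr2. Neighbours in these orders mostly overlapped over their libraries. In the libraries labelled mdx the exceptions were Ltbp4 above Ctgf and Tgfb3 above Ltbp3. In those labelled mdx/Runx1f/f they were Ctgf above Tgfb3, Ltbp3 above Tgfbr1 and Tgfbr1 above Tgfb2.

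**Figure D3:**
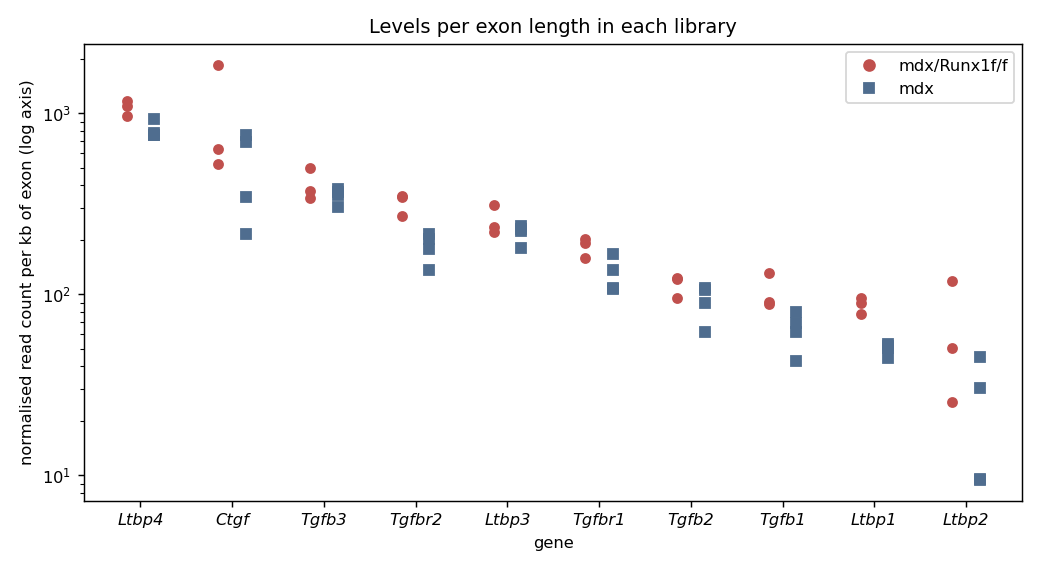
Normalised read counts per kilobase of exon, on a log axis, for each gene and library; circles are the 3 libraries labelled mdx/Runx1f/f and squares the 4 labelled mdx. Ltbp4 and Ctgf stand at the top and Ltbp2 at the bottom, where libraries of 1 group range from 25.2 to 118.

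Shares within each role did not separate the groups. Tgfb3 made up 64.6% ± 4.79 of the per-length ligand counts in the libraries labelled mdx/Runx1f/f (SD, n = 3) and 69.6% ± 2.39 in those labelled mdx (SD, n = 4). Tgfb1 took 16.9% ± 4.76 against 12.6% ± 3.24. Ltbp4 took 72.5% ± 3.91 of the latent binding protein counts per length against 73.4% ± 2.74, and Ltbp1 5.94% ± 0.967 against 4.56% ± 0.333. The ranges of both groups overlapped for each gene's share in the 3 roles.

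**Figure D4:**
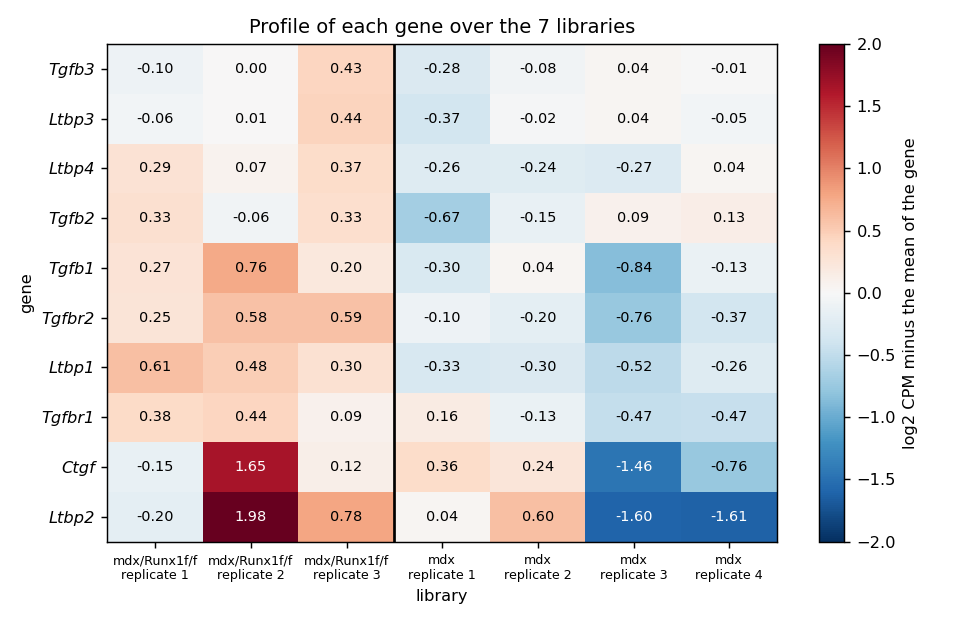
Log2 CPM of each gene in each library minus the mean of that gene over the 7 libraries, with the 3 libraries labelled mdx/Runx1f/f left of the line and the 4 labelled mdx right of it. Tgfb3 and Ltbp3 run nearly alike, and Ltbp2 spans from -1.61 to 1.98.

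The genes also fell into different patterns over single libraries, as the plot of profiles shows. Likeness was measured as the root mean square distance between mean-centred log2 CPM profiles over the 7 libraries, among 10756 genes with a mean of at least 50 normalised counts. The gene nearest to Tgfb3 was Ltbp3, and the gene nearest to Ltbp3 was Tgfb3, at a distance of 0.0446. In both, mdx/Runx1f/f replicate 3 was highest, at 0.43 and 0.44 on the centred log2 scale, and mdx replicate 1 lowest, at -0.28 and -0.37. The next pair among the 10 genes, Ltbp3 and Ltbp4, was at a distance of 0.205, and the farthest, Tgfb2 and Ltbp2, at 1.29. Ltbp2 was nearest to the chemokine receptor gene Ccr1 (0.295) and the chemokine gene Ccl6 (0.378), against its own spread of 1.20. Ctgf was nearest to the replication factor gene Mcm5 (0.221) and to Naip2 (0.252), an inflammasome gene. For Tgfbr2 the nearest were the matrix gene Fbln2 (0.0849) and Rarres2 (0.0888), which encodes chemerin. Ltbp1 was nearest to Tbc1d2b (0.0862) and the transcription factor gene Tcf7l1 (0.0905), and Tgfb1 to Tagln2 (0.0853) and the repressor gene Erf (0.0912). Tgfb2 was nearest to Jub (0.0550), a LIM-domain adaptor gene, and Vgll4 (0.101), Ltbp4 to Serinc5 (0.0456), and Tgfbr1 to Plp2 (0.0504) and Mterfd2 (0.0551). The second nearest gene to Tgfb3 was Ormdl3 (0.0684). Group differences are part of each profile, so these distances are descriptions.

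The rest of the pathway was read in the same fit over 71 further genes in 7 lists, of which 68 were tested, 21 were called higher and 1 lower, with a median log2 fold change of 0.72. The share of all genes called higher was 5.10%. The lists were chosen with earlier results of these data known, so this share is background and not a test of the lists. Of 10 genes of the matrix scaffold that holds latent complexes, 7 were called higher (median 1.09). They included Mfap2 (log2 fold change 1.25, SE 0.17, edgeR adjusted p = 0.0132), which encodes a microfibril component, Emilin1 (0.99, edgeR adjusted p = 0.0188), an inhibitor of proTGF-beta processing, Mfap5 (1.21, edgeR adjusted p = 0.0205) and Fbln2 (0.87, edgeR adjusted p = 0.0210). Mfap2 had 416, 334 and 433 normalised counts in the libraries labelled mdx/Runx1f/f and 142, 205, 138 and 179.7 in those labelled mdx, with no overlap.

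Of 15 transcripts that TGF-beta raises in fibroblasts, 7 were called higher and 0 lower (median 1.35). The collagen genes Col3a1, Col1a1 and Col1a2 had log2 fold changes of 1.43, 1.47 and 1.35 (edgeR adjusted p = 0.0157, 0.0187 and 0.0218), and Postn, which encodes the matricellular protein periostin, 1.79 (edgeR adjusted p = 0.0168). Collagens are also made in quantity by fibro-adipogenic progenitors, whose summed markers did not overlap between groups (2713 to 3210.1 CPM against 1072 to 1488 CPM), and the part of those cells was not tested. Mfap5 stands in both the scaffold list and the progenitor list. Of 5 other genes of the CCN family 3 were tested and 1 was called, Nov, at 330.03, 514 and 591 normalised counts against 124, 145, 146 and 213 in the libraries labelled mdx (log2 fold change 1.61, edgeR adjusted p = 0.0157).

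Among 15 genes that activate latent TGF-beta, 14 were tested, 3 were called higher and 1 lower (median 0.90). Called higher were Mmp2, a gelatinase gene (log2 fold change 1.28, edgeR adjusted p = 0.0183), the integrin gene Itgb3 (1.15, edgeR adjusted p = 0.0223) and Plau, the urokinase gene (0.87, edgeR adjusted p = 0.0319). Itgb6, which encodes the beta chain of an integrin that activates TGF-beta on epithelial cells, fell to 707, 686 and 853 normalised counts, against 1121, 973, 1160.4 and 1206 in the libraries labelled mdx (log2 fold change -0.57, SE 0.12, edgeR adjusted p = 0.0326). With 1 library left out at a time, Itgb6 stayed called in 2 of 7 fits and Itgb3 and Plau in 3 each. Bmp1 was listed at 0 in every library.

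Of 14 negative regulators, 3 were called higher and 0 lower (median 0.34). They were Dcn and Bgn, which encode the proteoglycans decorin and biglycan that bind TGF-beta in the matrix (log2 fold changes 1.12 and 1.27, edgeR adjusted p = 0.0107 and 0.0207), and Ski, a corepressor of Smads (0.56, edgeR adjusted p = 0.0201). For the 3 Smad transducers edgeR and limma-voom made 0 calls, while DESeq2 called 1 gene lower and 1 had an unadjusted edgeR p below 0.05, Smad3 in both cases. Smad3 had 1238, 1393 and 1490.04 normalised counts in the libraries labelled mdx/Runx1f/f and 2079, 1512, 3693 and 2507 in those labelled mdx. The groups did not overlap, but -0.83 in log2 (SE 0.27) did not pass the test (edgeR adjusted p = 0.0952). Of 9 other receptors of the family 0 were called by edgeR, DESeq2 or limma-voom and 1 had an unadjusted p below 0.05, Tgfbr3, the co-receptor betaglycan, 0.55 higher in log2 (edgeR adjusted p = 0.151).

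**Figure D5:**
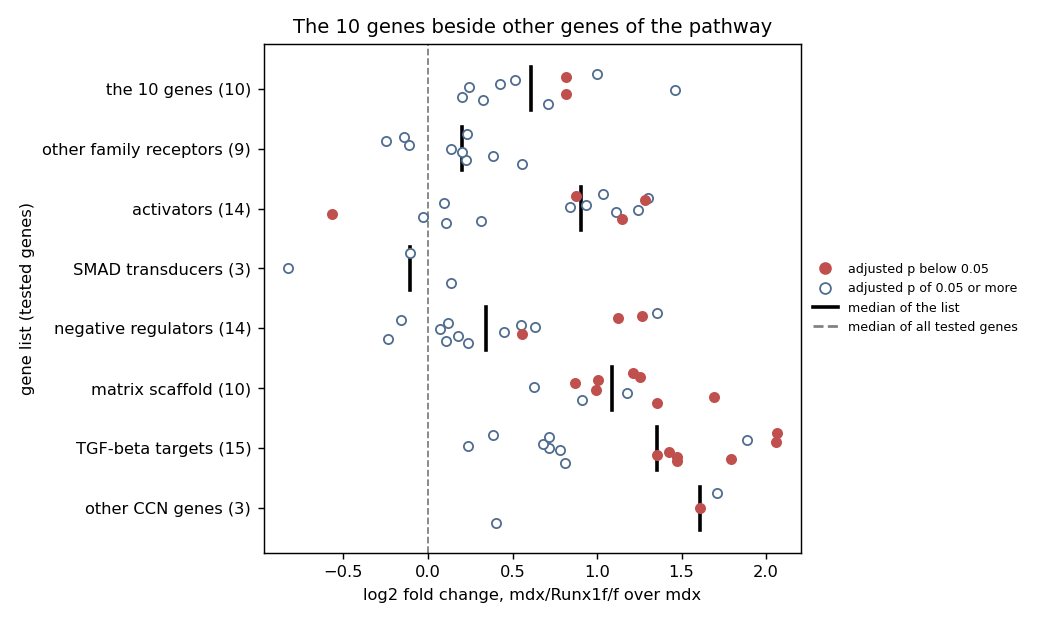
Log2 fold changes, mdx/Runx1f/f over mdx, of the tested genes of each list, 1 point a gene, with black bars at the median of the list and a dashed line at the median of all tested genes. The 10 genes have a median of 0.61, below the medians of the matrix scaffold (1.09) and of the TGF-beta targets (1.35). All lists were chosen with earlier results of these data known.

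The fold changes that the authors deposited come from the same 7 libraries and are no independent check. For all 10 genes they have the same signs as here. Of 13891 genes checked, 99.7% had the sign of the difference in mean normalised counts. In the authors' deposited table the log2 fold change was 0.79 for Ltbp1 (adjusted p = 5.18e-10), 0.76 for Tgfbr2 (adjusted p = 0.000617), 0.41 for Ltbp4 (adjusted p = 0.00829) and 0.63 for Tgfb1 (adjusted p = 0.0380). The other 6 of the 10 genes were above 0.05 in the authors' deposited table, with Tgfbr1 nearest at an adjusted p of 0.0589. The share of all genes below 0.05 there was not computed. DESeq2 1.42.0 on the same counts called 10% of the genes it tested higher and 5.95% lower.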

How the data were processed

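The authors deposited 1 table of read counts per gene for 7 soleus libraries, made with TopHat2 2.0.10 and HTSeq on mm9, per the submitters' processing notes. The annotation and strand setting of the counting were not given in the sources used here. The table also holds the signal the authors normalised, called normalised counts here, which are the counts divided by 1 factor per library. It further holds the authors' log2 fold changes and p-values, per the file headers, and the notes name DESeq2 1.6.3.

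Column heads give animal numbers, and the titles tie each number to a group and name 7 animals. Counts were tested with edgeR 4.0.16 in R 4.3.3 (TMM, filterByExpr, quasi-likelihood test, Benjamini-Hochberg adjustment over 14033 genes, threshold 0.05), without a block, and the script was tested on simulated data. Alternatives used DESeq2 1.42.0, limma 3.58.1, other filters, a replicate block and fits without 1 library. Profiles are log2 CPM with a prior count of 2. The 10 genes and all lists were chosen with earlier results of these data known. Named by rule were the 10 genes, Runx1, up to 6 called genes a list (beyond that the 4 with the smallest p), the smallest p where none was called, and the 2 nearest profiles, of which some are not reported here. Promoter windows are RefSeq's.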

Additional observations from a re-analysis of the deposited data

Results flagged for a closer look

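In 39 sets of 4 libraries labelled mdx, the normalised count of 2 genes had a single library set apart from the other 3. For Ltbp4 the gap divided by the range was 0.903, above Dixon's critical value for 4 values, with mdx replicate 4 high at 6044 beside 4904, 5012 and 4901. For Col1a2 it was 0.894, with mdx replicate 3 low at 9471 beside 17363, 17348 and 16526. Chance alone sets about 1 in 20 such groups apart.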

How the results depend on the processing

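All 10 genes kept a positive log2 fold change in the 16 alternative fits that keep the titles, and Ltbp1 was called in 15 of them. The numbers of genes called higher among the 10, among the other pathway genes and among all genes were 2, 21 and 715, with 0, 1 and 260 lower. DESeq2 called 4, 33 and 1484 higher and 0, 2 and 881 lower. The animal number series as a covariate gave 4 of the 10 genes and 1246 and 582 of all genes. Animals 373 to 375 alone gave 5, 40 and 1361 higher and 440 of all genes lower, where the lone library labelled mdx/Runx1f/f is assumed to vary like the others, and animals 358 to 363 alone gave 0 calls in every set (1658 higher and 1011 lower at an unadjusted edgeR p below 0.05). Leaving out each library in turn gave 1 to 3 of the 10 genes, 4 to 24 pathway genes higher and 0 to 1 lower, and 173 to 641 of all genes higher and 17 to 209 lower. The same fits separated 0 to 3 of the 10 ratio pairs. The cause of these shifts was not tested.

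With the replicate number as a block, 1 of the 10 genes (Ltbp1), 10 pathway genes and 240 of all genes were called higher. In the same sets 0, 0 and 80 were called lower. In 5 ratio pairs the differences between same-numbered libraries all had the same sign. This is a looser measure than groups without overlap, and it leaves out mdx replicate 4. The numbers do not pair the samples: deviations of same-numbered libraries correlated at -0.0069, 0.241 and 0.275, and not every library correlated best with its own number.

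Grouping by the description field gave 0 of the 10 genes, 0 pathway genes, 5 of all genes higher and 3 lower, and 3 separated ratio pairs. Under it the log2 fold change reversed for Runx1 (-0.80), Tgfb1 (-0.44), Ltbp1 (-0.30), Ltbp2 (-1.23), Tgfbr1 (-0.49), Tgfbr2 (-0.23), Ctgf (-1.26), Tgfbr3 (-0.54), Itgb3 (-0.028), Plau (-0.45), Itgb6 (0.30), Smad3 (0.72), Dcn (-0.14), Ski (-0.19), Bgn (-0.40), Mfap2 (-0.14), Emilin1 (-0.17), Mfap5 (-0.27), Fbln2 (-0.30), Col3a1 (-0.073), Postn (-0.31), Col1a1 (-0.21) and Col1a2 (-0.32), because this grouping moves libraries between the groups. With 3 and 4 libraries, an uncalled gene was not shown to be alike in both groups.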
